A study of Mus musculus with 12 samples.

Results

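The 10 genes studied here belong to the bone morphogenetic protein (BMP) axis of blood vessel cells and were followed in ribosome-bound mRNA from tumours of 2 melanoma lines. They were taken by symbol, and all 10 of 10 were found among the 24421 symbols of the count table and passed the filter on low counts. The genes are the receptors Acvrl1 (the protein is called ALK1), Bmpr2 and Bmpr1a, the co-receptor Eng (endoglin), the signal transducers Smad1 and Smad5, the inhibitory Smad6 and Smad7, and the target genes Id1 and Id3. Highly metastatic B16F10 melanoma (n = 7 libraries) was set against poorly metastatic B16F0 melanoma (n = 5). Both were grown under the skin for 12 days in hosts of the C57BL/6 strain with the genotype Rpl22fl/flHA;Cdh5(PAC)-CreERT2, whose age is not given. Every host received tamoxifen, which turns on Rpl22, a protein of the ribosome, with an HA tag where the Cdh5 promoter drives CreERT2, so the tag depends on Cdh5 activity and on recombination. Whether each library came from its own animal is not stated, and p-values describe only the variation among these libraries, which may be technical. Each line is represented by its own tumours only, with no vessel cells from healthy tissue for reference.

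In this pathway a BMP-type ligand binds a pair of type I and type II receptors, and the type I receptor phosphorylates Smad1 and Smad5, which enter the nucleus with Smad4. In endothelial cells ALK1 is the main type I receptor for BMP9 and BMP10, endoglin presents these ligands to it, and BMPR2 is its usual type II partner. Smad6 and Smad7 block the receptors and are themselves induced by the pathway, while Id1 and Id3 encode inhibitors of helix-loop-helix transcription factors and are its classical early targets. Inherited loss of ALK1 or endoglin causes hereditary haemorrhagic telangiectasia, a disease of malformed vessels.

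The sequences shown here are stretches of RefSeq promoter windows with letters that BMP Smads are known to bind. They are given as context for the axis, and every match in the windows of its genes is shown, whatever the levels of the gene. They come from RefSeq windows of 300 bases on GRCm38.p6, 250 bases before and 50 after a start, which held 7 of the 10 genes. The starts are those of RefSeq, and some windows overlap exons annotated by GENCODE. Of the 250 bases before the start, such exons covered 250 for Id3 and Bmpr2, 141 for Bmpr1a and 90 for Smad1. They covered 0, 42 and 159 in the Smad5 windows, in order of position, and 0 for Eng and Smad6. The printed Id3 and Bmpr2 letters therefore lie in annotated exons, after the GENCODE start of the gene. So do the Smad5 letters before the second listed start. The Bmpr1a letters and the Smad5 letters before the third listed start also lie after the GENCODE start of their gene. Both strands were searched for the Smad box CAGAC, which reads GTCTG from the other strand, for the palindrome GGCGCC and for the palindrome GTCTAGAC. No matches overlap each other in the stretches printed. Capitals mark these letters. The Eng stretch, chr2:32646345-32646594 on the plus strand, ends at the base before the annotated gene and is given whole because it holds 2 Smad boxes.
Eng: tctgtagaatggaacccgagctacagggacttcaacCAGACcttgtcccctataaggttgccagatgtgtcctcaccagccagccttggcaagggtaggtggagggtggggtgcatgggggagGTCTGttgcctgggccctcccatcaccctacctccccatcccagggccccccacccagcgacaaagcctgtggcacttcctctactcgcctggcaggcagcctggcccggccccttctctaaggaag
Id3, 167 bases before the start, chr4:136143645-136143669, plus strand: tcctcggcgtCAGACcagcctaagg
Id3, 68 bases before the start, chr4:136143744-136143768, plus strand: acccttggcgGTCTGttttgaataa
Bmpr1a, 198 bases before the start, chr14:34502729-34502754, minus strand: cgcgcgcgccGGCGCCtcttgctcgc
Bmpr2, 105 bases before the start, chr1:59764164-59764189, plus strand: ccggcggccgGGCGCCgctgcctgcc
Smad5, 19 bases before the second listed start, chr13:56703023-56703048, plus strand: ccggcgagcgGGCGCCgagcgcttgt
Smad5, 21 bases before the third listed start, chr13:56703637-56703661, plus strand: tgcccaagttCAGACtccatcccct
Smad6, 15 bases on each side of the start, chr9:64022045-64022074, minus strand: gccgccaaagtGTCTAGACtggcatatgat
The window of Smad1 held none of these letters. A Smad box stands in 49.6% of all 32851 windows of this length, GGCGCC in 11.9% and GTCTAGAC in 0.213%. These matches are a description of the letters only, and neither factor binding nor promoter activity was measured here.

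The axis genes lie on separate chromosomes except for Eng and Id1. On GRCm38, Acvrl1 was annotated at chr15:101128522-101145336, Eng at chr2:32646595-32682669, Bmpr2 at chr1:59763400-59879014 and Bmpr1a at chr14:34410734-34503341. Smad1 lies at chr8:79338395-79399518, Smad5 at chr13:56703010-56742377 and Smad6 at chr9:63953076-64022059, while Id1 lies at chr2:152736251-152737410 and Id3 at chr4:136143497-136145755. Exons of Eng share 61 bases with Fpgs on the opposite strand, which stood at up to 19.0 CPM. Bmpr1a and Acvrl1 share 290 and 127 exon bases with the antisense genes Gm17110 and Gm16031. Whether reads were counted by strand is not stated in the sources used here, and reads in these shared bases cannot be assigned to a strand.

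Library totals ran from 5322510 to 20569186 counts, and both lines were present at each of the 3 lane numbers in the library names. The labels do not say whether libraries with the same lane number were sequenced in the same run, and the lane of every fit below is that number. Of the 12 library names 7 open with a 6-digit prefix of unstated meaning, and 2 prefixes are shared by a B16F10 and a B16F0 library (B16F10 replicate 3 with B16F0 replicate 2, and B16F10 replicate 4 with B16F0 replicate 3). B16F10 replicates 1 and 2 also share a prefix. They are the B16F10 libraries of lane 2, whose only B16F0 library is replicate 1. Vessel content was read from an endothelial score, the mean log2 CPM (CPM being counts scaled to a common library total) of 22 pan-endothelial genes that hold none of the 10 axis genes. B16F10 libraries had a score of 5.20 ± 1.04 (SD, n = 7) and B16F0 libraries one of 5.26 ± 1.12 (SD, n = 5), which did not differ beyond that spread (two-sided exact permutation p = 0.926, 792 splits). Scores of 3 libraries stood apart, at 6.98 (B16F10 replicate 4), 6.32 (B16F10 replicate 5) and 7.11 (B16F0 replicate 3), against 4.08 to 5.18 in the other 9. Markers of the pigment cell lineage were abundant in all libraries, with 20 genes summing to between 12224 and 25228 CPM, against 745 to 5969 CPM for the 22 endothelial genes. A level below is therefore that of the whole precipitate, in which fewer cells of a type and less RNA per cell cannot be told apart. The ribosomal RNA precursor Rn45s took 31.4% of counts in B16F10 replicate 5 and 8.91% in B16F0 replicate 5.

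Smad5 was the most abundant axis transcript per kilobase of exon and Smad6 the least. In CPM without regard to length Bmpr2 stood higher, with a mean of 490 CPM against 461 CPM for Smad5. Per kilobase of merged exons, Smad5 stood at 62.1 ± 9.04 CPM per kb (SD over 12 libraries), and its lowest library, at 46.2, was above the highest library of any other axis gene. The receptors and the co-receptor followed at similar levels, with Acvrl1 at 28.7 ± 8.37, Bmpr2 at 27.3 ± 7.15, Eng at 23.4 ± 9.72 and Bmpr1a at 22.0 ± 6.74 CPM per kb. The neighbours in this group differed by less than their spread. Smad7 at 7.61 ± 5.36, Smad1 at 7.11 ± 2.74, Id3 at 6.11 ± 5.88 and Id1 at 5.81 ± 5.23 CPM per kb formed a lower group with overlapping ranges. Smad6 reached 0.613 ± 0.305 CPM per kb and rested on 10 to 43 counts per library. These lengths count all annotated exons, and which transcripts were present was not measured.

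**Figure D1:**
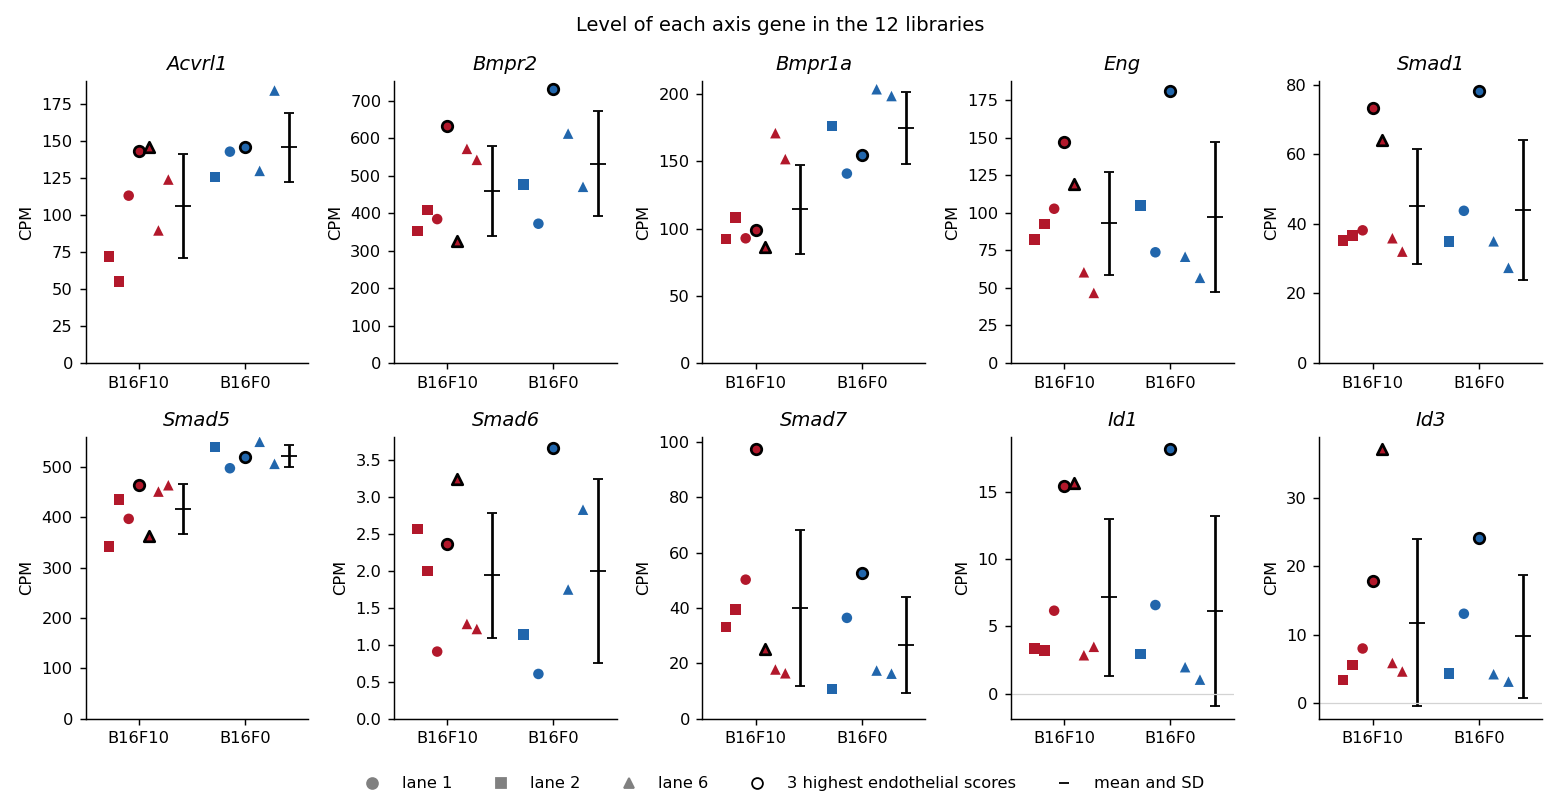
Level of each axis gene in CPM (vertical axes, linear, scaled per gene) in the 7 B16F10 libraries (red) and the 5 B16F0 libraries (blue), with symbols for the sequencing lane, black outlines for the 3 libraries of highest endothelial score, and bars for the mean and SD of each line. Smad5 is the one gene in which the lines do not overlap, and in Eng, Smad1, Id1 and Id3 the outlined libraries lie at or near the top of both lines.

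The comparison of the lines asked whether the axis differs between precipitates from highly and poorly metastatic tumours. As these also held abundant pigment cell transcripts, a difference between the lines cannot be assigned to vessel cells. No axis gene passed the threshold in either direction, and the lowest adjusted p was that of Bmpr1a, with a mean of 115 ± 33.2 CPM over the B16F10 libraries (SD, n = 7) against 175 ± 27.1 CPM over those of B16F0 (SD, n = 5). Of the 13534 genes tested, 1.3% were called higher and 1.47% lower in B16F10 (false discovery rate 0.05), or 2.77% in either direction. At an unadjusted p under 0.05 stood 4 of the 10 axis genes, Bmpr1a, Acvrl1, Smad5 and Smad7, against 14.8% of all genes. The median log2 fold change of the 10 genes was -0.015, against 0.019 over all tested genes. As the 10 genes were chosen with earlier results of these data known, these shares only describe them.

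Among the receptors, Acvrl1 was measured at 55.2, 113 and 146 CPM (lowest, median and highest B16F10 library) and at 125, 143, 146, 130 and 184 CPM in B16F0 replicates 1 to 5. The 2 lowest values were B16F10 replicates 2 and 1, both of lane 2, and the ranges overlapped through B16F10 replicates 4 and 5. The fitted log2 fold change, B16F10 over B16F0, was -0.46 ± 0.18 (SE; 95% interval -0.84 to -0.07; edgeR adjusted p = 0.236). In lanes 1, 2 and 6 the difference in mean log2 CPM was -0.18, -0.99 and -0.40, and without lane 2 the fitted value was -0.28 with an adjusted p of 0.741.

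Bmpr2, the type II receptor, ranged from 326 through a median of 409 to 634 CPM in B16F10, and stood at 476, 372, 733, 613 and 471 CPM in the B16F0 replicates. Its ranges overlapped almost completely. Between the lines Bmpr2 differed by a log2 fold change of -0.19 ± 0.22 (95% interval -0.66 to 0.28; adjusted p = 0.753).

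Bmpr1a, the type I receptor ALK3 for BMP2 and BMP4, ranged from 86.6 through 98.9 to 171 CPM in B16F10 and stood at 176, 141, 155, 204 and 199 CPM in the B16F0 replicates. Of the 7 B16F10 libraries 5 lay below every B16F0 library, at up to 108 CPM, and only replicates 6 and 7, at 171 and 152 CPM, reached the B16F0 range. The log2 fold change of Bmpr1a was -0.64 ± 0.16 (95% interval -0.99 to -0.29; edgeR adjusted p = 0.0552). Within lanes 1, 2 and 6 the difference was -0.62, -0.82 and -0.62, so it had the same sign and a similar size on each lane. The lane 2 value rests on a single B16F0 library.

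The call on Bmpr1a stood at the edge of the threshold. With the endothelial score in the fit it was lower in B16F10 by the test (log2 fold change -0.64, edgeR adjusted p = 0.0418), where 3.81% of all genes were called in either direction. DESeq2 gave an adjusted p of 0.00672, and edgeR gave 0.0418 without B16F10 replicate 5 and 0.0381 without B16F10 replicate 6. In 23 of 28 other settings Bmpr1a was not called. Its adjusted p was 0.0509 by limma-voom and up to 0.190 by edgeR with 1 library left out. The authors' deposited table lists a log2 fold change of -0.65 with an adjusted p of 0.0431 for Bmpr1a, the one axis gene under 0.05 there, where 3.24% of 14107 genes are. Without lane 2 the adjusted p was 0.281, and with the melanocytic score in the fit the fold change was -0.53 with an adjusted p of 0.136. That score was 8.33 ± 0.23 in B16F10 and 8.63 ± 0.19 in B16F0 (mean log2 CPM of 20 genes; SD; exact permutation p = 0.0328, adjusted over 6 marker lists 0.197). Mural cell markers (3.82 ± 0.97 against 3.00 ± 0.45, SD) and fibroblast markers (3.58 ± 1.56 against 2.70 ± 0.90) had higher means in B16F10. Neither difference passed the test (exact permutation p = 0.130 and 0.304), and the part of these cells in the Bmpr1a difference was not tested.

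Eng ranged from 46.6 through 92.4 to 147 CPM in B16F10 and stood at 105, 73.7, 181, 70.7 and 56.7 CPM in the B16F0 replicates. The highest value of each line was its library of highest endothelial score, and the lines overlapped over most of their range. For Eng the log2 fold change was 0.025 ± 0.26 (95% interval -0.55 to 0.60; adjusted p = 0.980), an interval that holds a change of either direction. In 10 of 28 other settings its sign was the opposite one.

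Of the signal transducers, Smad5 ranged from 343 through 436 to 465 CPM in B16F10 and stood at 540, 498, 520, 550 and 506 CPM in the B16F0 replicates. Every B16F10 library was below every B16F0 library, with a gap from 465 to 498 CPM. Such a separation was seen for 1 of the 10 axis genes and for 2.73% of all tested genes. The log2 fold change of Smad5 was -0.32 ± 0.14 (95% interval -0.62 to -0.028; edgeR adjusted p = 0.283), and the lane differences were -0.24, -0.48 and -0.32. Smad5 did not pass the adjusted threshold in any of 28 other settings, in which the fold change ran from -0.39 to -0.27.

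Smad1, the partner of Smad5, ranged from 32.0 through 36.6 to 73.1 CPM in B16F10 and stood at 34.9, 43.7, 78.3, 35.0 and 27.3 CPM in the B16F0 replicates. One B16F0 library and 2 B16F10 libraries lay above 60 CPM and are the 3 of highest endothelial score. Its log2 fold change was 0.16 ± 0.24 (95% interval -0.36 to 0.69; adjusted p = 0.817).

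The 2 inhibitory Smads differed in level and in pattern. Smad7 ranged from 16.4 through 33.2 to 97.5 CPM in B16F10 and stood at 10.7, 36.4, 52.5, 17.4 and 16.2 CPM in the B16F0 replicates. Its lines overlapped, and B16F10 replicate 4 stood far above the rest. The log2 fold change of Smad7 was 0.72 ± 0.25 (95% interval 0.17 to 1.27; edgeR adjusted p = 0.184), with lane differences of 0.68, 1.74 and 0.20. With the melanocytic score in the fit it was 0.20 (adjusted p = 0.577), and without B16F0 replicate 1, the lowest library, it was 0.45 (adjusted p = 0.496).

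Smad6 ranged from 0.908 through 2.00 to 3.24 CPM in B16F10 and stood at 1.14, 0.605, 3.67, 1.75 and 2.83 CPM in the B16F0 replicates. The log2 fold change of Smad6 was -0.055 ± 0.50, and its 95% interval from -1.15 to 1.04 holds changes of about 2-fold in either direction. With the melanocytic score in the fit it was -1.04 ± 0.36 (edgeR adjusted p = 0.131).

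The targets Id1 and Id3 were low and varied most among the axis genes relative to their means. Id1 ranged from 2.86 through 3.49 to 15.6 CPM in B16F10 and stood at 2.94, 6.59, 18.2, 1.97 and 1.05 CPM in the B16F0 replicates. Its 3 highest libraries, at 15.4, 15.6 and 18.2 CPM, were the 3 of highest endothelial score, and no other library exceeded 6.59 CPM. In Id1 the log2 fold change was 0.77 ± 0.58 (95% interval -0.49 to 2.04; adjusted p = 0.602), and its lane differences of -0.16, 0.15 and 1.80 varied in sign. Without B16F10 replicate 5 the Id1 value was 0.31, without B16F0 replicate 5 it was 0.42 and without B16F0 replicate 3 it was 1.17, none of them called. With the endothelial score in the fit its SE shrank to 0.28 and the fold change was 0.63 (adjusted p = 0.283).

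Id3 ranged from 3.37 through 5.87 to 37.1 CPM in B16F10 and stood at 4.35, 13.1, 24.1, 4.23 and 3.14 CPM in the B16F0 replicates. The highest library was B16F10 replicate 5, in which Rn45s took 31.4% of counts. The log2 fold change of Id3 was 0.61 ± 0.63 (95% interval -0.75 to 1.97; adjusted p = 0.724), and without that library it was -0.0083. It was 0.30 and 0.25 without B16F0 replicates 4 and 5, and 0.95 without B16F10 replicate 3.

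**Figure D2:**
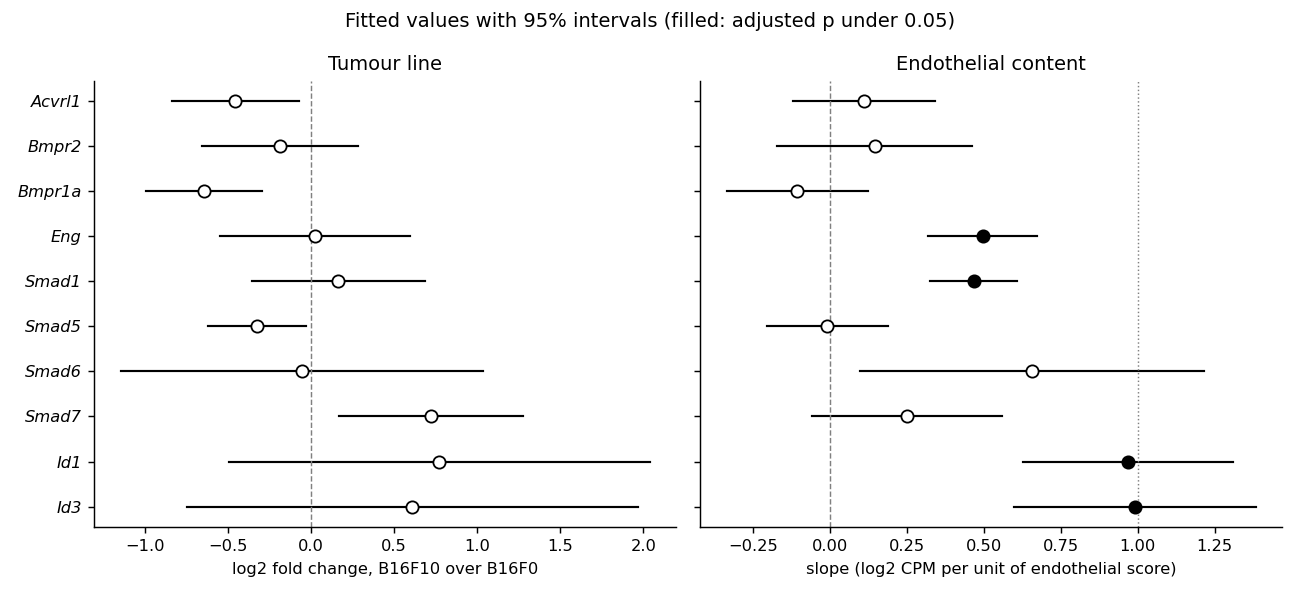
Fitted values of the 10 axis genes with 95% intervals: on the left the log2 fold change of B16F10 over B16F0, on the right the slope in log2 CPM per unit of endothelial score, with a dotted line at a slope of 1 and filled points for an adjusted p under 0.05. No point is filled on the left, and Eng, Smad1, Id1 and Id3 are filled on the right.

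The second comparison asked which axis transcripts follow the vessel content of the precipitate. Id1, Id3, Eng and Smad1 rose with the endothelial score, the Id genes about in proportion to it and Eng and Smad1 less steeply. The receptors Acvrl1, Bmpr2 and Bmpr1a and the transducer Smad5 had slopes near 0 and did not pass the test. The slope is the change in log2 CPM per unit of score with lane and line in the fit, so that a slope of 1 is a level in proportion to the 22 endothelial genes. A positive slope was called for 4 of the 10 axis genes and for 4.36% of all tested genes, a negative one for 0 of 10 and 0.347%. The median slope of the 10 genes was 0.36, against -0.0024 over all genes. Because the 10 genes were chosen with earlier results of these data known, these shares describe them and are not a test of the axis.

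The Id genes had the steepest slopes of the axis. For Id3 the slope was 0.99 ± 0.18 (SE; 95% interval 0.60 to 1.38; edgeR adjusted p = 0.00566) and for Id1 it was 0.97 ± 0.16 (95% interval 0.63 to 1.31; adjusted p = 0.00231). Both intervals hold 1. The values of Id3 rest in part on B16F10 replicate 5, without which its slope was 0.53 (adjusted p = 0.0588), while Id1 kept a slope of 0.71 or more without any one library and an adjusted p of at most 0.0374.

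Eng had a slope of 0.50 ± 0.081 (95% interval 0.32 to 0.67; edgeR adjusted p = 0.00248) and Smad1 one of 0.47 ± 0.065 (95% interval 0.32 to 0.61; adjusted p = 0.000797). Both intervals lie below 1. Without any one library the slope of Eng stayed between 0.45 and 0.60 and that of Smad1 between 0.44 and 0.49, each still called.

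Acvrl1, whose protein is described as largely restricted to endothelium in the adult, had a slope of 0.11 ± 0.11 (95% interval -0.12 to 0.34; adjusted p = 0.589), which is below the slope interval of Id1 and Id3. Its 3 libraries of highest endothelial score stood at 143, 146 and 146 CPM, and B16F0 replicate 5, of the lowest score, stood higher at 184 CPM. Bmpr2 had a slope of 0.14 ± 0.15 (95% interval -0.17 to 0.46; adjusted p = 0.605). Without B16F10 replicate 5, which was the lowest Bmpr2 library, the slope of Bmpr2 was 0.44 with an adjusted p of 0.0153. Bmpr1a had a slope of -0.11 ± 0.11 (95% interval -0.34 to 0.12) and Smad5 one of -0.0089 ± 0.090 (95% interval -0.20 to 0.19).

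The inhibitory Smads lay between these. Smad6 had a slope of 0.66 ± 0.26 (95% interval 0.097 to 1.21; edgeR adjusted p = 0.201), an interval that holds both the Id and the Eng values. Smad7 had a slope of 0.25 ± 0.14 (95% interval -0.059 to 0.56; adjusted p = 0.365). When the lane was left out of the fit, Smad7 passed the test with a slope of 0.62 (adjusted p = 0.0370).

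**Figure D3:**
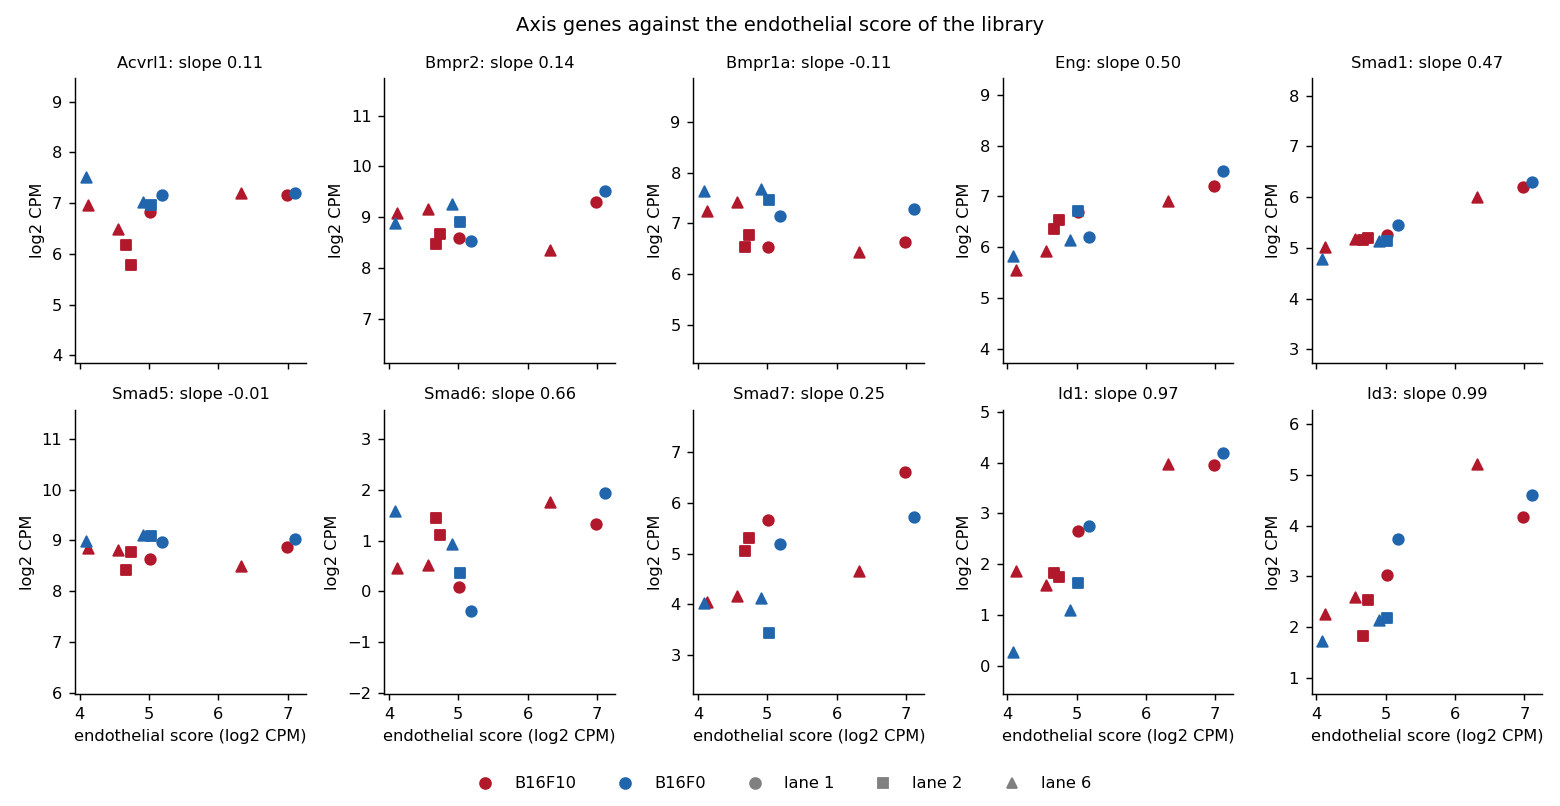
Log2 CPM of each axis gene (vertical axes, each spanning the same number of log2 units) against the endothelial score of the library (horizontal axis, log2 CPM), for B16F10 (red) and B16F0 (blue), with symbols for the lane and the fitted slope in each title. The 3 libraries with scores above 6 lie to the right, apart from the 9 libraries at 5.18 or below, and hold the highest values of Id1 and Smad1.

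The slopes of single axis genes could not be told apart after adjustment. Over the 45 pairs of axis genes, 17 differed in slope at an unadjusted p under 0.05 and 0 after adjustment (exact permutation of the score within lanes, 17280 orders, two-sided, slopes on log2 CPM centred by lane without the line, chosen after the data were seen). Id3 was steeper than Acvrl1 by 0.86 (exact permutation p = 0.0124, adjusted 0.107), and Eng was steeper than Acvrl1 by 0.41 (exact permutation p = 0.0251, adjusted 0.107). Eng was steeper than Smad5 by 0.52, with the smallest p of all pairs (exact permutation p = 0.0118, adjusted 0.107). Without the 3 libraries of highest score, 2 pairs had an unadjusted p under 0.05 and 0 passed the adjustment. In these pairs Bmpr2 and Smad1 were each steeper than Smad7 (exact permutation p = 0.0208, adjusted 0.469). The order of the slopes also changed there, again without the line. Bmpr1a had 0.61, Bmpr2 0.44, Smad5 0.39 and Acvrl1 -0.0011, against 0.50 for Eng, 0.46 for Id3, 0.31 for Smad1 and 0.17 for Id1.

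These calls rest on the 3 libraries of highest score. B16F10 replicate 4 and B16F0 replicate 3 share a name prefix, and the other is the library with 31.4% of counts in Rn45s, and the fits treat the 3 as independent. With the prefix in place of the lane, tried later with the results known, the slopes were 1.22 for Id1, 1.47 for Id3, 0.53 for Eng and 0.49 for Smad1, all still called. That fit compares libraries within a prefix, and the shared pair above had close scores (6.98 and 7.11). Its slopes therefore rest mainly on the libraries without a prefix, all of lane 6. Among these B16F10 replicate 5 had a score of 6.32 and the others had 4.08 to 4.91. Without the 3 libraries of highest score no axis gene and no gene of the table was called on the score. With lane and line in the fit, the slopes were then 0.58 for Id1, 0.64 for Id3, 0.48 for Eng and 0.41 for Smad1. The slope of Acvrl1 was then -0.70. Of the markers of other cell types, Kcnj8 and Abcc9 of 10 mural genes were called with positive slopes, and no fibroblast gene of 10 and no macrophage or leukocyte gene of 11 was called. Among 20 pigment cell genes Tyrp1 and Slc24a5 had a negative slope and Ednrb a positive one, and of 6 lymphatic genes Flt4 had a positive slope and Pdpn a negative one. With the melanocytic score in the fit the slopes of Id1, Id3, Eng and Smad1 were 1.19, 1.22, 0.55 and 0.46, all still called.

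Whether the lines differ in how the axis follows vessel content was tested as an interaction of line and score. It was called for 0 of the 10 axis genes, and none had an unadjusted p under 0.05. Of all genes 0% passed, with 1.22% at an unadjusted p under 0.05, so no gene was called different between the lines by edgeR's quasi-likelihood test. The 3 libraries of highest score were B16F10 replicates 4 and 5 and B16F0 replicate 3. With so few such libraries per line, 0 calls do not show that the slopes are equal.

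Across the 12 libraries most axis genes could be placed in 2 sets by their pairwise Pearson r of log2 CPM, given as a description of libraries that share lanes and scores. Id1 and Id3 had an r of 0.93, Smad1 had 0.95 with Id1 and 0.92 with Id3, and Eng had 0.85 with Smad1 and 0.79 with Id1. In the other set Bmpr1a and Smad5 had an r of 0.85, and Bmpr2 and Smad5 one of 0.68. Smad7 was nearer to the first set, with an r of 0.70 with Id1, 0.68 with Smad1 and 0.64 with Eng, and Smad6 reached no r above 0.42 with any axis gene. For Acvrl1 the highest r was 0.45 with Smad5, then 0.35 with Bmpr1a, 0.35 with Id3 and 0.27 with Bmpr2, and it had 0.20 with Id1 and 0.095 with Eng.

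Outside the axis, genes most like Id1 over the 12 libraries included Adam15 (r = 0.97), Hey1, a transcription factor of the Notch and BMP pathways (0.96), and Mfge8 (0.95). These 3 had a called positive slope on the endothelial score, from 0.54 for Adam15 to 0.86 for Hey1, where 4.36% of all tested genes had one. The genes most like Acvrl1 were Cwc27 (r = 0.93), Fam53c (0.92), Baz2a (0.91) and Ppfibp1 (0.91), with slopes of 0.052 to 0.081 and no call. Those most like Bmpr2 were Zdhhc20 (0.95), Tbl1xr1 (0.92), Hipk1 (0.91) and Fam126a (0.89), with slopes of 0.059 to 0.078 and no call. All these genes were picked by their r over the same 12 libraries. Their slopes therefore resemble that of the axis gene by choice and are no separate result.

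The ligands of the axis were scarce in the precipitates. Gdf2, which encodes BMP9, was counted 0 to 7 times per library and 16 times in all, and Bmp10 was counted 0 to 10 times and 36 times in all. Bmp4, a ligand of Bmpr1a, was counted 44 times in all. None of these 3 passed the filter, and of the 11 ligands listed only Bmp2, Bmp6 and Bmp8b did. Bmp6 ranged from 0.900 through 2.12 to 8.06 CPM in B16F10 and stood at 0.937, 1.45, 8.53, 1.92 and 1.89 CPM in the B16F0 replicates. Its highest library in each line was the one of highest endothelial score, its slope was 0.90 ± 0.30 (edgeR adjusted p = 0.134) and its log2 fold change between the lines was 0.45 ± 0.60 (adjusted p = 0.794).

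Of the other receptors and co-receptors, 7 of the 9 listed names were tested, and none passed in either comparison (median slope 0.087, median log2 fold change 0.0062). Of the 9 other Smad pathway proteins and ubiquitin ligases all were tested and none passed (median slope 0.16, median log2 fold change -0.012). Over all tested genes, 4.36% had a called positive slope and 2.77% were called between the lines. Having 0 calls in lists of this size is close to those shares.

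Among 17 antagonists and modulators 7 were tested, of which Crim1 and Bambi rose with the endothelial score, where 4.36% of all genes were called. Crim1, a membrane protein that binds BMPs, ranged from 61.1 through 72.3 to 190 CPM in B16F10 and stood at 70.9, 82.6, 206, 79.3 and 70.9 CPM in the B16F0 replicates, with a slope of 0.62 ± 0.084 (edgeR adjusted p = 0.000672). Bambi, a receptor-like protein without a kinase domain, had a slope of 0.43 ± 0.10 (adjusted p = 0.0307), which was lost in 11 of 28 other settings.

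Fstl1, a secreted glycoprotein reported to bind BMPs, was called between the lines, the only one of the 37 tested pathway genes, a share close to the 2.77% of all genes called in either direction. It ranged from 159 through 181 to 279 CPM in B16F10 and stood at 52.7, 82.3, 210, 50.7 and 49.4 CPM in the B16F0 replicates. Of the 5 B16F0 libraries 4 lay below every B16F10 library, and replicate 3 lay within the B16F10 range. The fitted difference of Fstl1 was 1.39 ± 0.33 on the log2 scale (edgeR adjusted p = 0.0466). That call was lost in 16 of 28 other settings, among them leaving out any library but B16F10 replicate 3 or B16F0 replicate 3, with values from 0.98 to 1.72. Fstl1 is also a fibroblast transcript, and the fibroblast markers were at 164 to 2382 CPM in sum in B16F10 and 160 to 859 CPM in B16F0, whose part in this difference was not tested.

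Of 16 further target genes of BMP and ALK1 signalling 11 were tested, and 6 of these rose with the endothelial score, against 4.36% of all tested genes, with a median slope of 0.70 over the 11 and -0.0024 over all genes. The list was chosen with earlier results of these data known. Dll4, a Notch ligand of sprouting and arterial vessels, had a slope of 1.14 ± 0.11 (edgeR adjusted p = 7.6e-05), from 15.1 CPM in B16F0 replicate 5 to 114 CPM in B16F0 replicate 3. Efnb2, an arterial ephrin ligand, had a slope of 0.93 ± 0.096 (adjusted p = 8.1e-05). The others, named after their values were seen, were Gja5 (1.06), Unc5b (0.98), Hey1 (0.86) and Hes1 (0.70). The call on Gja5 was lost in 5 of 28 other settings, among them without B16F10 replicate 5 (slope 0.73, edgeR adjusted p = 0.0634). Several of these genes also mark arterial or Notch-active endothelium. Tmem100, a target of ALK1 in endothelium, was counted 0 to 23 times per library and did not pass the filter. None of the 11 was called between the lines.

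**Figure D4:**
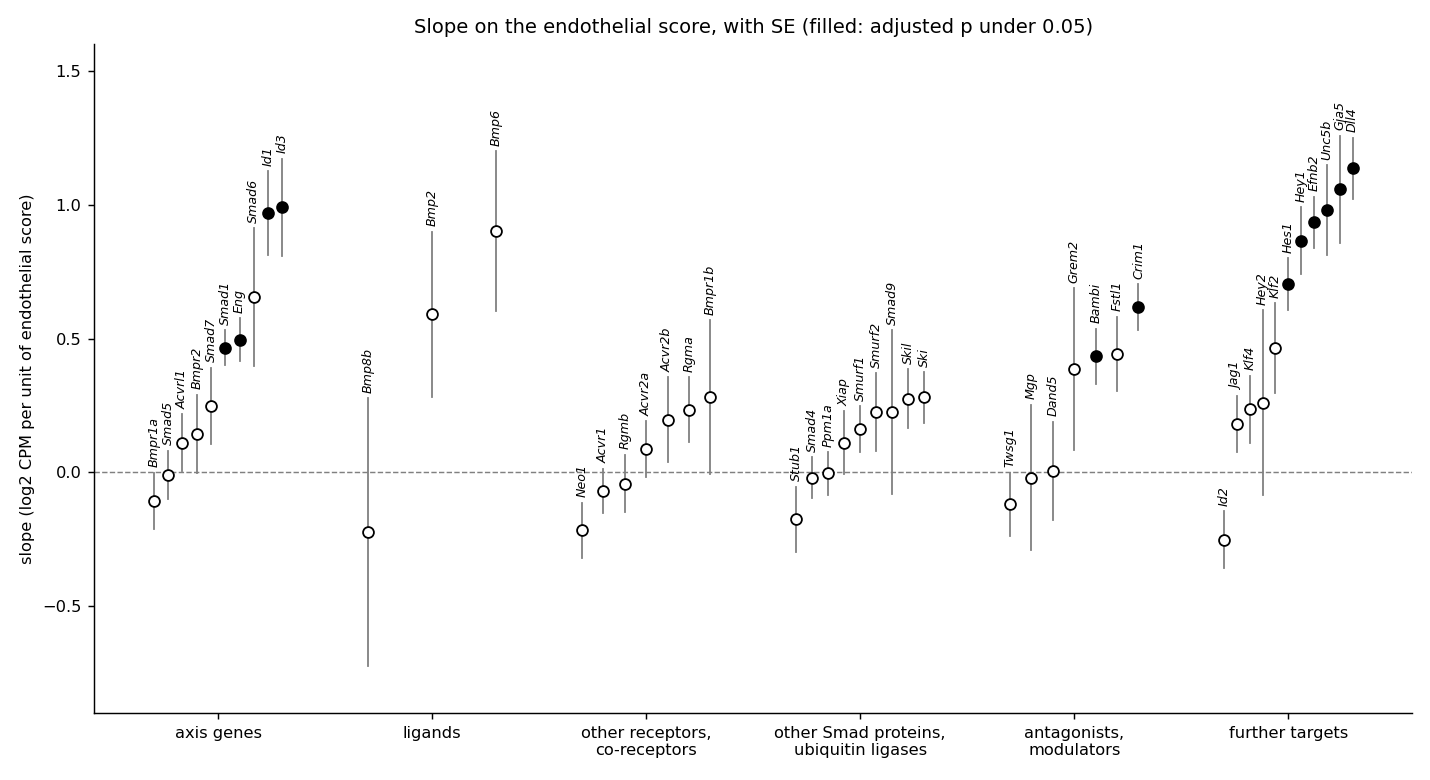
Slope on the endothelial score (log2 CPM per unit of score, with SE as bars) of the 10 axis genes and the 37 tested genes of the 5 pathway lists, with filled points for an adjusted p under 0.05. Filled points stand among the axis genes (4), the antagonists (2) and the further targets (6), and none stands among the ligands, the other receptors or the other Smad proteins. Over all tested genes 4.36% had a called positive slope, so 0 filled points in a short list is close to that share.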

How the data were processed

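The 12 libraries of ribosome-bound mRNA were made with a ScriptSeq kit, per the labels. The values used are raw counts that the authors deposited as 1 table with a row per symbol. Per the submitters' processing notes, the build was mm10, and featureCounts 1.6.0, STAR 2.2.1, cutadapt 1.16, R 3.3.2 and edgeR are named. Strand use and gene annotation in that counting are not stated in the sources used here. The authors' deposited comparison table (log2 fold changes, p-values) was read with its decimal comma as a point. The normalized values deposited beside them lack decimal marks and were left out.

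Counts were scaled by TMM, filtered with filterByExpr (minimum count of 10, group as design; 13534 of 24421 symbols kept) and tested with edgeR 4.0.16 quasi-likelihood F tests in R 4.3.3, with lane and line in the fit and Benjamini-Hochberg adjustment over all tested genes. The slope and interaction fits add the endothelial score. Log2 CPM uses a prior count of 2, and each SE is the estimate divided by the square root of F. The fits were tested on simulated counts. Positions and merged exon lengths come from GENCODE M21 on GRCm38 (95.7% of symbols matched), promoters from RefSeq.

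The axis genes and lists were chosen with earlier results of these data known. Named were the axis genes, of each pathway list the genes called between the lines and the 2 of smallest slope p in each direction among those called on the score, 5 further genes whatever their values, and the 4 genes most like Acvrl1, Id1 and Bmpr2, of which 1 is not reported here. Alternatives were other scalings, filters, DESeq2 1.42.0, limma-voom (limma 3.58.1), other covariates, the replicate block, libraries left out and, added after seeing the data, the library name prefix as batch. Replicates all differed by more than the sampling noise of their counts (chi-square tests).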

Additional observations from a re-analysis of the deposited data

Results flagged for a closer look

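Of the 20 sets of values tested (10 axis genes in 2 lines) 2 held a library far from the others of its line, by Dixon's test at the 95% level, which chance alone gives in about 1 of 20 sets.

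Smad7 stood at 97.5 CPM in B16F10 replicate 4, and the next of the 7 libraries was at 50.2 CPM, a gap of 0.583 of the whole range. This library also had the highest endothelial score of its line, 6.98, while the slope of Smad7 on that score did not pass the test.

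Id3 stood at 37.1 CPM in B16F10 replicate 5, and the next library was at 17.9 CPM, a gap of 0.569 of the range. Rn45s took 31.4% of counts in this library, and its part in the Id3 level was not tested. Id1 in the same library, at 15.6 CPM, was close to the 15.4 CPM of replicate 4.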

How the results depend on the processing

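No axis gene was called higher in B16F10 in any of the settings tried. One was called lower with DESeq2, at a false discovery rate of 0.1 and with the endothelial score in the fit (Bmpr1a each time), and 0 to 1 with 1 library left out. The count of axis genes with a positive slope was 4 in each fit without 1 library, though not always the same genes, and 0 without the 3 libraries of highest score.

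Over all genes, 176 were higher and 199 lower in B16F10, 104 to 199 and 99 to 247 with 1 library left out. These counts were 407 and 445 with DESeq2, 96 and 81 without lane 2, 111 and 125 without the 2 libraries of over 5% Rn45s, 289 and 354 at a false discovery rate of 0.1, 309 higher with the melanocytic score in the fit, 131 lower with no lane term, and 325 and 305 with the name prefix in place of the lane. Positive slopes were called for 590 and negative ones for 47, 357 to 992 and 4 to 698 with 1 library left out. They were 1304 and 1092 without the libraries of over 5% Rn45s, 0 and 0 without the 3 libraries of highest score, and 287 and 7 with the melanocytic score. Negative slopes alone were 11 with no lane term, 96 with upper quartile scaling, 23 with no filter, 245 with DESeq2, 251 without lane 2, 154 at a false discovery rate of 0.1, 154 with the name prefix and 29 with no line term. The endothelial score difference of -0.058 ran from -0.35 to 0.39 with 1 library left out, a range that crosses 0.

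Replicate numbers are shared by the lines, but same-numbered libraries did not deviate together (r of -0.27, -0.27, -0.24, -0.29 and 0.32 for numbers 1 to 5), so the numbers do not pair them. The 2 pairs of libraries that share a name prefix did deviate together (r of 0.74 and 0.55), and the prefix was tried as a term after this was seen. For the B16F0 library of each pair, the prefix partner had the highest r among the B16F10 libraries. Other pairs, without a shared prefix, reached r not far below these, and what the prefix stands for was not tested. B16F0 replicate 1 had 0.67 with B16F10 replicate 3, and B16F0 replicate 4 had 0.53 with B16F10 replicate 7. With the replicate block in place of the lane, 30 genes were higher and 28 lower, 99 had a positive and 0 a negative slope, 0 of them axis genes, and 355 and 567 had a positive and a negative interaction, against 0 and 0 with the lane; the cause was not tested.

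Signs that changed belonged to values near 0 or with wide intervals, and the cause was not tested. The Eng fold change was -0.068 with no lane term, -0.055 with no filter, -0.22 without the libraries of over 5% Rn45s, -0.071 without the 3 libraries of highest score, -0.013 with the endothelial and -0.37 with the melanocytic score, and -0.17 to 0.21 with 1 library left out. With the Rn45s libraries left out and with the melanocytic score it was -0.081 and -0.30 for Smad1, and -0.16 and -0.36 for Id3, which ran from -0.0083 to 0.95 with 1 library left out. For Id1 it was -0.17 with the melanocytic score. Smad6 gave 0.33 with the replicate block, 0.0016 with limma-voom, 0.0073 without the 3 libraries 0.097 with Ddx3y and -1.04 with the melanocytic score in the fit, and -0.34 to 0.41 with 1 library left out. Without the 3 libraries the slope was 0.18 for Bmpr1a, -0.70 for Acvrl1, 0.13 for Smad5 and -0.88 for Smad6. Without the Rn45s libraries it was 0.043 for Bmpr1a and 0.061 for Smad5. The Smad5 slope was 0.0074 with the replicate block, 0.0055 with upper quartile scaling, 0.020 with the melanocytic score and 0.0001 on a score of Cdh5 and Pecam1, and -0.046 to 0.092 with 1 library left out, while Bmpr1a ran from -0.16 to 0.083. The Smad7 slope was -0.12 with the melanocytic score, and the Bmpr2 slope was -0.27 with the name prefix. With 1 library left out the fold change ran from -0.55 to -0.29 for Acvrl1, from -0.31 to -0.076 for Bmpr2 and from 0.012 to 0.31 for Smad1.

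Counts per library were fewest for Smad6 (10 to 43), Id1 (10 to 213) and Id3 (21 to 320).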
